A study of Mus musculus with 9 samples.

Results

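Cd2, Cd5 and Cd6 code for surface glycoproteins of T cells that tune signalling through the T cell receptor. The members were these 3 genes, taken by symbol from 45321 annotated genes, with the transcripts listed for them (3 for Cd2, 1 for Cd5 and 5 for Cd6). They were chosen from their own measured levels in the 4 groups described here, so their values are a description, and no test is given for any of them. All 3 were among the 14040 genes that passed the filter on low counts. Without stimulation all 3 stood higher with Compound 10 than with DMSO (2.00-fold for Cd2, 3.91-fold for Cd5 and 4.03-fold for Cd6), and with stimulation they parted, Cd2 being 1.79-fold lower, Cd5 1.82-fold higher and Cd6 level.

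CD2 is an adhesion receptor of the immunoglobulin superfamily that in the mouse binds CD48 on other cells and lowers the threshold of T cell activation; its proline-rich tail holds adaptors that link it to the actin cytoskeleton. CD5 and CD6 are scavenger receptor cysteine-rich proteins, coded by neighbouring genes, whose tails are phosphorylated when the T cell receptor is engaged and recruit both adaptors and enzymes that damp the signal. CD5 is set during thymic selection in step with the strength of self-recognition. CD6 binds ALCAM (CD166) and CD318, and in human T cells activation favours a CD6 form that lacks the exon of its ALCAM-binding domain.

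RNA was sequenced from splenic CD4+ T cells of C57BL/6 mice, purified by removal of other cells. All groups were kept for 1 h in 12.5 µM Compound 10, which the series describes as a small-molecule inhibitor of the NFAT:AP-1 transcription factor complex, or in its vehicle DMSO, and then for 2 h with or without 10 nM PMA and 1 µM ionomycin, agents that replace receptor signalling by activating protein kinase C and raising calcium. The groups were stimulated Compound 10 (3 libraries), stimulated DMSO (2), unstimulated Compound 10 (2) and unstimulated DMSO (2). Nothing in the labels says that libraries came from separate animals or cultures, so the spread given here may be technical; the labels name no transgene, and neither age nor sex is stated there. Estimated counts per library ranged from 10669821 to 21852830, and ribosomal RNA took 9.08% to 33.2% of them. Library 2 of unstimulated DMSO (33.2%) and library 2 of stimulated DMSO (19.3%) were the richest in it. The purified cells carried their label: the 10 CD4 T cell markers, Cd4 and the CD3 genes among them, were all detected and summed to at least 853 CPM (counts scaled to a common library size) in each library. Both CD8 genes together reached at most 7.31 CPM.

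The sequences that tell the Cd6 forms apart are shown first, because the forms differed between groups. Cd6 lies on the minus strand at chr19:10789341-10830058 (GRCm38, GENCODE M21). Its longest form, Cd6-203, has 13 exons, of which exon 9 (chr19:10792828-10792944, 117 bases, a multiple of 3) is absent from Cd6-202. Exon 9 is printed in capitals with 20 bases on either side, and below it the join that Cd6-202 has in its place, with the bases after the join in capitals.
Cd6-203 exon 9: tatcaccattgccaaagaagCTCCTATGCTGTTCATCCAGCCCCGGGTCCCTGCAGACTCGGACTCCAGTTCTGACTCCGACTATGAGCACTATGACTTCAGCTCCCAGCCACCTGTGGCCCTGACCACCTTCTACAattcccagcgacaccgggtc
Cd6-202 join: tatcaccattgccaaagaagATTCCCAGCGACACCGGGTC
The exon absent from the transcripts Cd6-205 and Cd6-201 is exon 5 (chr19:10797676-10797978, 303 bases), and the joins with and without it differ after the first 20 bases, again in capitals.
Exon 4 to exon 5: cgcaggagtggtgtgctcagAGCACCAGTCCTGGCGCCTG
Exon 4 to exon 6: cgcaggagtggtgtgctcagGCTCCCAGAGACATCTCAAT
Cd2 lies at chr3:101275899-101287939 and Cd5 at chr19:10717116-10739002, both on the minus strand. The spans of Cd5 and Cd6 are 50.3 kb apart.

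Cd2 was lower with Compound 10 in stimulated cells and higher with it in unstimulated cells. Levels are given in CPM after scaling of the libraries by the trimmed mean of M-values (TMM). Cd2 had 103, 135 and 99.9 CPM in stimulated Compound 10 libraries, against 201 and 203 CPM in stimulated DMSO libraries. The groups did not overlap, and the stimulated DMSO libraries held the highest Cd2 levels of the 9. Unstimulated Compound 10 libraries had 86.6 and 94.3 CPM of Cd2, against 48.6 and 41.7 CPM in unstimulated DMSO libraries, again without overlap. The fitted log2 fold change of Cd2 with Compound 10 was -0.84 (SE 0.17) in stimulated cells and 1.00 (SE 0.20) in unstimulated cells. As the members were chosen on these groups, the SE of each is a description and not a test. With stimulation Cd2 was 4.47-fold higher in DMSO, a log2 fold change of 2.16 (SE 0.20). Under Compound 10 the log2 fold change was 0.32 (SE 0.18), with no overlap of libraries. That value was 0.18 without library 2 of stimulated Compound 10.

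Cd5 was higher with Compound 10 in both states. It had 171, 126 and 152 CPM in stimulated Compound 10 libraries, against 102 and 62.3 CPM in stimulated DMSO libraries. In unstimulated cells its levels were 134 and 118 CPM with Compound 10, against 34.4 and 30.1 CPM with DMSO. Neither pair of groups overlapped, and the gap was wider without stimulation. The log2 fold change of Cd5 with Compound 10 was 0.86 (SE 0.22) in stimulated cells and 1.97 (SE 0.25) in unstimulated cells. Both stimulated DMSO libraries bear on the first value, which was 1.27 without library 1 and 0.54 without library 2, the one richer in ribosomal RNA. With stimulation Cd5 was 2.55-fold higher in DMSO (log2 fold change 1.35, SE 0.24). Under Compound 10 its stimulated and unstimulated libraries overlapped, with a log2 fold change of 0.24 (SE 0.22).

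Cd6 was higher with Compound 10 in unstimulated cells, and in stimulated cells the libraries overlapped. Its levels were 99.3, 85.1 and 76.8 CPM in stimulated Compound 10 libraries, against 111 and 67.6 CPM in stimulated DMSO libraries. Unstimulated Compound 10 libraries had 155 and 163 CPM of Cd6, the highest of the 9, against 45.2 and 33.8 CPM in unstimulated DMSO libraries. The log2 fold change of Cd6 with Compound 10 was -0.03 (SE 0.22) in stimulated cells and 2.01 (SE 0.25) in unstimulated cells. The stimulated value was 0.37 without library 1 of stimulated DMSO and -0.35 without library 2, so the sign rests on which of these is used. Stimulation went with a 2.26-fold higher Cd6 level in DMSO (log2 fold change 1.18, SE 0.25). Under Compound 10 it went with a 1.83-fold lower one (log2 fold change -0.87, SE 0.22). Each of these comparisons had groups without overlap; the value in DMSO was 0.77 without library 1 of stimulated DMSO.

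**Figure D1:**
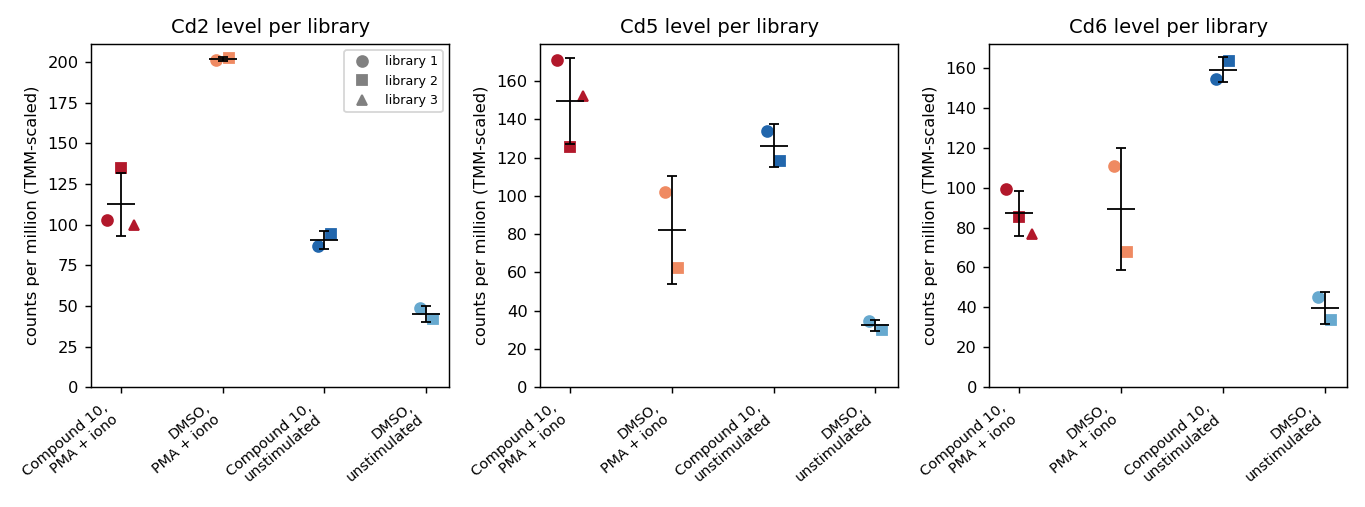
Level of Cd2, Cd5 and Cd6 in each of the 9 libraries, in CPM after TMM scaling, with a panel for each gene. Symbols mark the library number, horizontal lines the group mean and bars 1 SD; Cd2 peaks in stimulated DMSO (202 CPM on average), Cd5 stands high in both Compound 10 groups and Cd6 peaks in unstimulated Compound 10 (159 CPM on average).

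Across the 4 comparisons the libraries stood apart in 10 of 12 cases. Such separation was common: the share of all tested genes without overlap was 24.3% higher and 23% lower with Compound 10 in stimulated cells, and 28.1% higher and 27.3% lower in unstimulated cells. For stimulation it was 29.3% higher and 34.1% lower in DMSO, and 24.2% higher and 25.3% lower under Compound 10. Since the 3 genes were chosen on these groups, nothing is read from the count. In these bulk samples fewer cells of a type and less RNA per cell cannot be told apart.

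The order of the levels differed from gene to gene. Cd2 was highest in stimulated DMSO (202 ± 1.04 CPM, mean ± SD, n = 2), then stimulated Compound 10 (113 ± 19.2, n = 3), unstimulated Compound 10 (90.5 ± 5.41, n = 2) and unstimulated DMSO (45.2 ± 4.82, n = 2). The ranges of mean ± SD of the middle pair met, although no library overlapped. Cd5 ran from stimulated Compound 10 (149.6 ± 22.7 CPM) through unstimulated Compound 10 (126 ± 11.1) and stimulated DMSO (82.3 ± 28.2) to unstimulated DMSO (32.3 ± 3.05), and the first pair overlapped. Cd6 was highest in unstimulated Compound 10 (159 ± 6.22 CPM), followed by stimulated DMSO (89.1 ± 30.5), stimulated Compound 10 (87.1 ± 11.4) and unstimulated DMSO (39.5 ± 8.04). Its middle pair overlapped.

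**Figure D2:**
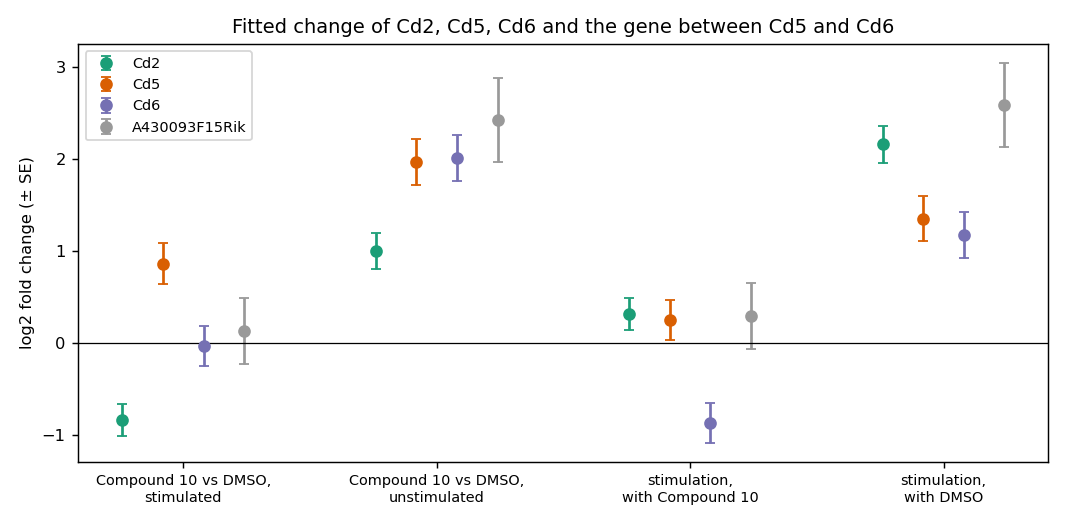
Fitted log2 fold change (points) with its SE (bars) for Cd2, Cd5, Cd6 and the noncoding gene A430093F15Rik in 4 comparisons, which share libraries. With Compound 10 the 3 receptors lie between 1.00 and 2.01 in unstimulated cells and spread from -0.84 to 0.86 in stimulated cells.

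Per transcript length, Cd2 was the most abundant of the 3. In TPM, transcript abundances that are divided by length and scaled to a common sum, Cd2 averaged 91.8 ± 23.7 in stimulated Compound 10 libraries and 172 ± 4.04 in stimulated DMSO libraries. Cd5 averaged 61.4 ± 7.88 TPM with Compound 10 and 35.7 ± 13.5 TPM with DMSO in stimulated cells, and Cd6 25.9 ± 4.81 and 27.0 ± 10.4 TPM (SD, n = 3 and 2). In unstimulated cells the TPM of Cd2, Cd5 and Cd6 averaged 96.6 ± 13.4, 67.7 ± 0.43 and 60.0 ± 6.07 with Compound 10, against 49.2 ± 18.7, 17.5 ± 6.49 and 15.5 ± 7.51 with DMSO (SD, n = 2 each). On this scale the change of Cd2 and Cd5 with stimulation under Compound 10 had the opposite sign to the one from counts (-0.10 and -0.15 on log2(TPM + 1)), while the median of all genes moved to -0.21. The direction of that small change therefore differed between these settings, which differ in tool as well as in scale. The cause was not tested.

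The 3 genes were not each other's nearest in pattern. Likeness was measured as the root mean square difference of log2 CPM, each gene centred on its own mean over the 9 libraries, among 4689 genes whose log2 CPM averaged 4 or more. Closest to Cd2 were Ppp1r15a (0.23), Zmynd19 (0.23), Itm2a (0.24), Gcsh (0.24) and Rrp9 (0.24), where the median gene differed by 0.80. Closest to Cd5 were Ptpn7 (0.24), Hdac7 (0.25), Mex3b (0.27), Klf16 (0.27) and Got1 (0.31), with a median of 0.93. Among those closest to Cd6 were Net1 (0.34), Ctsa (0.35), Mars2 (0.36) and Prep (0.36), with a median of 0.81. Cd5 and Cd6 differed by 0.50 from each other, which placed Cd6 98th on the list of Cd5 and Cd5 63rd on the list of Cd6. Cd2 differed from Cd5 by 0.78 and from Cd6 by 0.72, close to the median gene. These genes were picked for likeness, so their values are a description too.

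The forms of Cd6 did not move together. The form without exon 9, Cd6-202, had 7.11, 9.65 and 6.58 TPM in stimulated Compound 10 libraries, against 3.55 and 2.69 TPM in stimulated DMSO libraries. Cd6-203, which holds the exon, had 17.8, 13.8 and 10.4 TPM with Compound 10, against 25.0 and 14.8 TPM with DMSO. So in stimulated cells the groups were apart for Cd6-202, by 2.49-fold in the mean, and overlapped for Cd6-203. In unstimulated cells both forms were higher with Compound 10. Cd6-202 had 14.8 and 16.5 TPM there, against 5.13 and 1.57 TPM with DMSO, and Cd6-203 31.9 and 43.4 TPM, against 11.8 and 7.03 TPM with DMSO.

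The share of Cd6-202 in the sum of these forms was 28.6%, 41.1% and 38.7% in stimulated Compound 10 libraries, against 12.4% and 15.3% in stimulated DMSO libraries. Unstimulated Compound 10 libraries had 31.7% and 27.6%, against 30.3% and 18.2% in unstimulated DMSO libraries, which overlap. The stimulated DMSO pair held the lowest shares of the 9 libraries. The estimated count of Cd6-202 was lowest in the DMSO libraries, at 215 and 149 in stimulated and 156 and 78.9 in unstimulated cells, so their shares are the least precise. Of 6 annotated Cd6 transcripts 5 were listed, so reads of an unlisted form could be counted on these. The tables carry no error for the split of reads between forms, and Cd6-203 also begins further upstream than Cd6-202, so the share compares these annotated transcripts and not exon 9 alone.

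**Figure D3:**
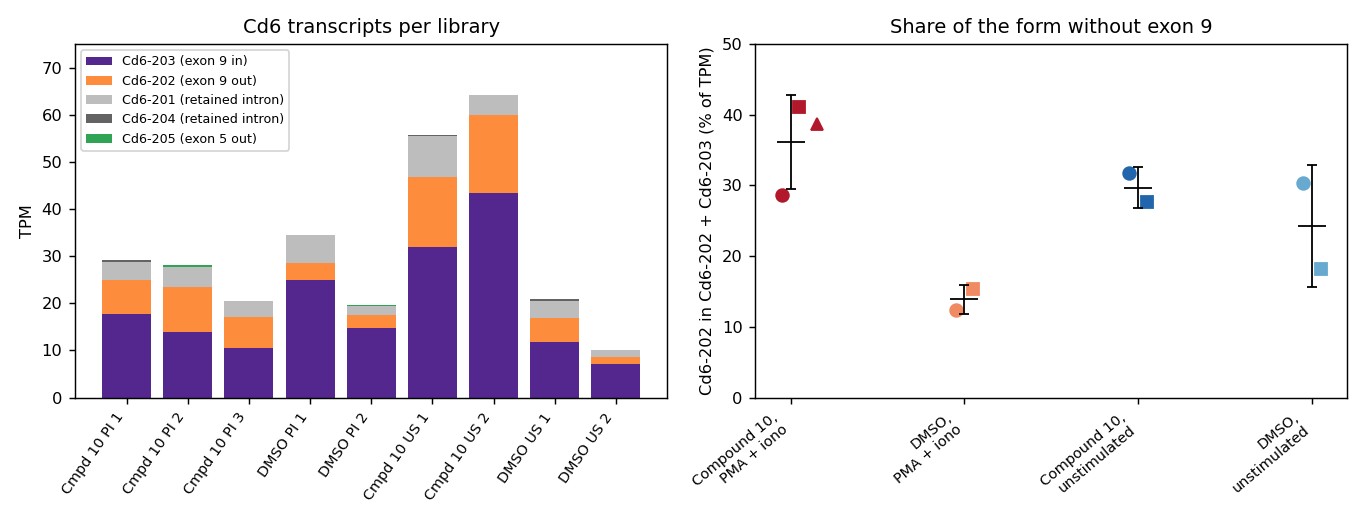
Left, TPM of the 5 Cd6 transcripts in each library, stacked (PI, stimulated; US, unstimulated). Right, TPM of Cd6-202 as a percent of Cd6-202 plus Cd6-203, with library points, group means (lines) and SD (bars); stimulated DMSO libraries lie at 12.4% and 15.3% and stimulated Compound 10 libraries between 28.6% and 41.1%.

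Few reads were assigned to the only listed coding transcript without exon 5, the exon skipped in activated human T cells. This transcript, Cd6-205, had an estimated count of at most 5.61 in any library. It is 982 bases long, against 3032 for Cd6-203. Reads of a longer coding form without exon 5 could be counted on other transcripts, so the level of such a form is not known. Cd6-205 and the retained-intron transcript Cd6-201, which also lacks exon 5, together made up 13.3% to 16.6% of Cd6 TPM in stimulated Compound 10 libraries. In stimulated DMSO libraries their share was 10.7% and 17.0%. In unstimulated cells it was 6.55% and 15.7% with Compound 10 and 17.4% and 15.7% with DMSO, with overlap in both states. Cd6-204, another retained-intron transcript, lies outside exon 5 and was left out of these shares. It had an estimated count of at most 3.69.

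Cd2 and Cd5 were each counted almost wholly on a single transcript. Cd2-201 took 93.5% to 99.0% of Cd2 TPM over the 9 libraries. Its TPM averaged 90.2 ± 24.1 in stimulated Compound 10 and 169 ± 5.16 in stimulated DMSO libraries. The other entries, Cd2-202 and Cd2-203, had at most 28.0 and 29.6 estimated counts. Cd5-201 was the only 1 of 4 annotated Cd5 transcripts listed in the tables, so it held all Cd5 reads.

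Around Cd5 and Cd6, a noncoding gene between them rose with Compound 10 in unstimulated cells. Position was not used to choose the members, so neighbouring genes could be tested. A430093F15Rik (chr19:10740947-10786043, plus strand) is annotated as a processed transcript; its span starts 1.945 kb from Cd5 and ends 3.298 kb from Cd6. It had 3.12 and 2.88 CPM in unstimulated Compound 10 libraries, against 0.79 and 0.32 CPM in unstimulated DMSO libraries. The log2 fold change was 2.43 (SE 0.46, edgeR quasi-likelihood adjusted p = 0.00979), with no overlap of libraries. With stimulation in DMSO it also rose, by 2.59 (SE 0.46, edgeR adjusted p = 0.00126). With Compound 10 in stimulated cells it had 4.48, 3.06 and 3.49 CPM, against 3.60 and 3.12 CPM with DMSO, and the log2 fold change was 0.13. Counts behind these low levels were 48 and 52 with Compound 10, against 11 and 5 with DMSO in unstimulated cells. The call was lost without library 2 of unstimulated DMSO or library 1 of unstimulated Compound 10 (largest edgeR adjusted p = 0.0934). The library kit is not stated to mark strand, so reads of either strand over its exons count alike.

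Other neighbours moved as well. Within 250 kb of Cd5 or Cd6 29 genes are annotated, A430093F15Rik among them, of which 15 were tested. With Compound 10 in unstimulated cells 2 of them, A430093F15Rik and Tmem109, rose and 1 fell, beside 7.34% of all tested genes in either direction. Tmem109, a membrane protein gene, rose (52.7 and 57.2 CPM with Compound 10, against 29.6 and 31.2 CPM with DMSO; log2 fold change 0.86, SE 0.18, edgeR adjusted p = 0.0141), and the noncoding AW112010 fell (log2 fold change -1.11, SE 0.23, edgeR adjusted p = 0.0148). In stimulated cells Ccdc86, a nucleolar protein gene, was the only 1 of the 15 to pass, being lower with Compound 10 (49.8 ± 4.42 CPM, n = 3, against 88.0 ± 8.87 CPM, n = 2; log2 fold change -0.82, SE 0.16, edgeR adjusted p = 0.00319), beside 23% of all genes. With stimulation 2 of the 15 rose and 5 fell in DMSO, beside 28.1% of all genes, and 1 rose and 3 fell under Compound 10, beside 21.8%. Of 12 genes near Cd2, 3 were tested, of which 2 rose with stimulation in DMSO and 1 under Compound 10. Igsf3, an immunoglobulin superfamily gene, rose with Compound 10 in unstimulated cells (1.02, SE 0.21, edgeR adjusted p = 0.0150) and Cd101, a further member of that superfamily, in stimulated cells (1.81, SE 0.50, edgeR adjusted p = 0.0201). Cd101 stood at 2.01 ± 0.24 CPM with Compound 10 and 0.58 ± 0.37 CPM with DMSO there, and lost its call without library 1 of stimulated DMSO (largest edgeR adjusted p = 0.149). The 4 calls around the 3 receptors in unstimulated cells rest on few libraries: without any 1 of the 4 unstimulated libraries at most 1 of them passed. All 6 named calls with Compound 10 around the 3 receptors were lost with limma on log2(TPM + 1).

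**Figure D4:**
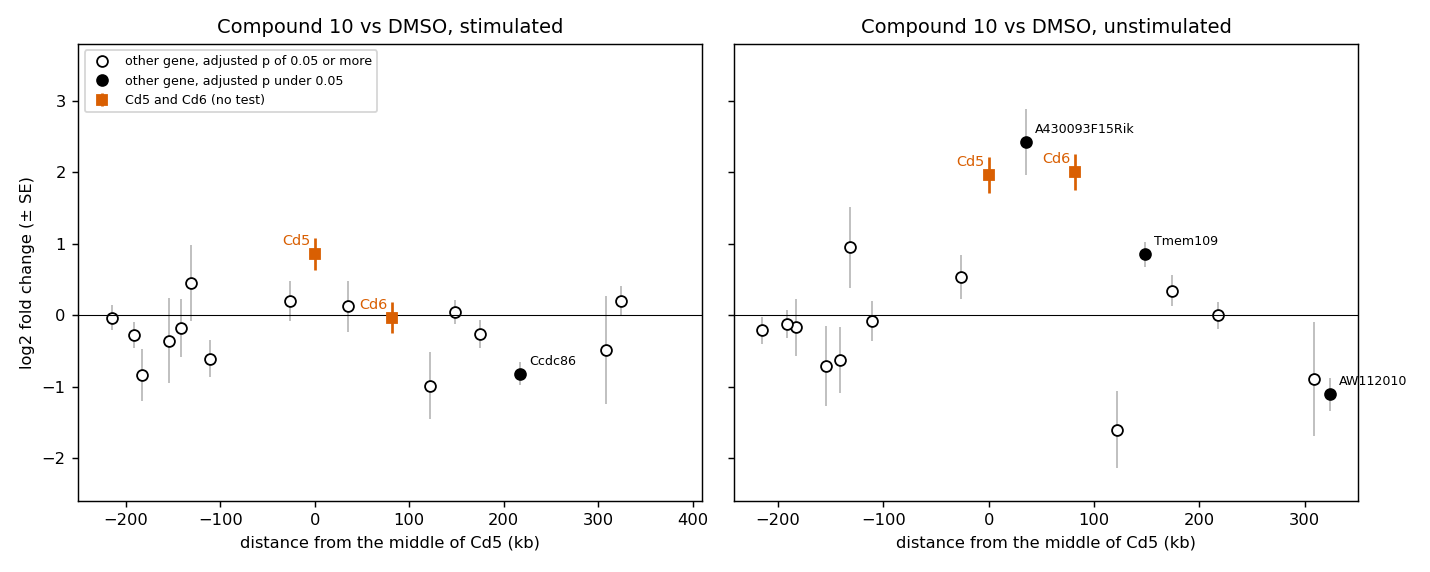
Log2 fold change with Compound 10 (points, bars 1 SE) of the tested genes within 250 kb of Cd5 or Cd6, by distance from the middle of Cd5 in kb, for stimulated (left) and unstimulated cells (right). In unstimulated cells Cd5 (1.97), A430093F15Rik (2.43) and Cd6 (2.01) stand above the others.

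The start sites of Cd5 and A430093F15Rik point away from each other and lie 1973 bases apart, so the 250 bases upstream of each are shown. They are RefSeq sequences (GRCm38.p6), for Cd5 chr19:10738975-10739224 on the minus strand and for A430093F15Rik chr19:10740697-10740946 on the plus strand; the table used held Cd5 of the 3 receptors. Capitals mark matches, on either strand, to the letters AGGAAG (an Ets core), CAGGTG (an E-box), TGTGGT (Runx), GGAAAA (an NFAT core) or TGANTCA (AP-1).
Cd5 upstream: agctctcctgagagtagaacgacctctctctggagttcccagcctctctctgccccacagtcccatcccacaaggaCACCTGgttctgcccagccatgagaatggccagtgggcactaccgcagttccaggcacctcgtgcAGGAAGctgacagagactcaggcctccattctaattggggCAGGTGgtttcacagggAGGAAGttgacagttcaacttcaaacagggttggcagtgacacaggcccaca
A430093F15Rik upstream: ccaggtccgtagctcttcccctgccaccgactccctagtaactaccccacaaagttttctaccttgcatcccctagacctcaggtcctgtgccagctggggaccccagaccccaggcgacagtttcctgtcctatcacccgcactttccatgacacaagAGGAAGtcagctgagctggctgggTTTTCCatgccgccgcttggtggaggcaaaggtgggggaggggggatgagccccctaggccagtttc
The Cd5 window held AGGAAG at 109 and 52 bases before the start and CAGGTG at 174 and 69 bases before it. The A430093F15Rik window held AGGAAG once, at 91 bases, and the complement of GGAAAA once, at 67 bases before the start. No 2 matches overlapped. Of 32851 upstream windows of this length, AGGAAG was in 29.5%, CAGGTG in 17.2%, GGAAAA in 20.4%, TGTGGT in 14.1% and TGANTCA in 6.75%. A match describes the letters only.

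Genes that work with the 3 receptors were read from 6 lists with 88 members, of which 67 were tested. The lists were drawn up with earlier results of these data known. Their shares and medians beside those of all genes are therefore a description, not a test of the lists. With Compound 10 in stimulated cells 17 were higher and 9 lower, 38.8% of those tested, beside 23% of all genes (11.7% higher and 11.4% lower). In unstimulated cells 12 were higher and 2 lower, 20.9%, beside 7.34% of all genes (4.44% higher and 2.9% lower). With stimulation 25 were higher and 6 lower in DMSO, 46.3%, beside 28.1% of all genes (14.3% higher and 13.8% lower), and 17 were higher and 4 lower under Compound 10, 31.3%, beside 21.8% (11% higher and 10.8% lower). The median log2 fold change of the 67 with Compound 10 was 0.18 in stimulated and 0.27 in unstimulated cells, against 0.00 and -0.01 for all tested genes. All these comparisons share libraries. Without library 2 of stimulated DMSO the first count was 17, and with both DMSO libraries richest in ribosomal RNA left out it was 15. The second count was 4 or 5 without any 1 unstimulated library, and 8 without library 3 of stimulated Compound 10. Of the 26 stimulated calls 15 held without each single library in turn, and of the 14 unstimulated ones 2 did, Runx3 and Id3. With limma on log2(TPM + 1) 15 partners passed in stimulated and 4 in unstimulated cells. The stimulated calls lost there were those of Alcam, Cd84, Slamf7, Sh2d1a, Lck, Ptpn6, Csnk2a1, Tcf3, Gabpa, Loxl2 and Prss12. In unstimulated cells Grap2, Lgals3bp, Runx3 and Id3 kept theirs.

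Among the ligands, Alcam, which codes for the CD6 ligand CD166, was lower with Compound 10 in stimulated cells. It had 8.49, 8.34 and 6.37 CPM with Compound 10, against 25.2 and 13.0 CPM with DMSO (log2 fold change -1.30, SE 0.33, edgeR adjusted p = 0.0131). Its call was lost without library 1 of stimulated DMSO or library 3 of stimulated Compound 10 (largest edgeR adjusted p = 0.205). In unstimulated cells the change was again -1.30 (SE 0.38) but did not pass (edgeR adjusted p = 0.0625). Cd48, the mouse ligand of CD2, changed by 0.68 (SE 0.25, edgeR adjusted p = 0.0733) in stimulated cells and -0.01 (SE 0.27) in unstimulated cells. Cd72, described as a CD5 ligand, changed by 0.43 (SE 0.32) and 0.91 (SE 0.35), and passed in neither state. Cdcp1, which codes for CD318, was too low to test, at 0.14 to 0.18 CPM on average in the groups.

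Of 7 tested genes of the SLAM family, the relatives of CD2 and their adaptors, 4 were higher with Compound 10 in stimulated cells, beside 23% of all genes. Slamf6, a self-binding receptor of T cells, had 57.8, 63.2 and 58.0 CPM with Compound 10, against 22.7 and 21.9 CPM with DMSO (log2 fold change 1.42, SE 0.18, edgeR adjusted p = 0.000240). Cd84 (0.81, SE 0.16), Slamf7 (0.92, SE 0.29) and the adaptor Sh2d1a (SAP, 0.64, SE 0.18) were the others. The calls of Cd84, Slamf7 and Sh2d1a were lost with limma on log2(TPM + 1), while that of Slamf6 in stimulated cells was kept. Slamf7 passed only by a margin and was lost without any 1 of 7 libraries, all but those of unstimulated Compound 10 (largest edgeR adjusted p = 0.284); Sh2d1a was lost without either stimulated DMSO library or without stimulated Compound 10 library 1 or 3 (largest 0.133). In unstimulated cells Slamf6 was the only 1 of the 7 to pass (0.79, SE 0.19, edgeR adjusted p = 0.0303), a call lost without either unstimulated DMSO library, unstimulated Compound 10 library 1 or stimulated Compound 10 library 3 (largest 0.268).

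Of 9 partners of the CD2 tail, Pstpip1 and Sh3kbp1 were higher with Compound 10 in stimulated cells, a share of 22.2% beside 23% of all genes. Pstpip1, an adaptor that ties CD2 to the Wiskott-Aldrich syndrome protein, had 32.0, 17.8 and 27.7 CPM with Compound 10, against 4.07 and 5.58 CPM with DMSO (log2 fold change 2.42, SE 0.30, edgeR adjusted p = 0.000224). Sh3kbp1, the CBL-binding adaptor CIN85, changed by 1.28 (SE 0.18, edgeR adjusted p = 0.000428) in stimulated cells and 0.82 (SE 0.19, edgeR adjusted p = 0.0230) in unstimulated cells, the last call being lost without any 1 unstimulated library (largest 0.185). Cd2 itself moved the other way in stimulated cells, at -0.84.

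Of 28 partners of the CD5 and CD6 tails, 5 were higher and 5 lower with Compound 10 in stimulated cells, 35.7% beside 23% of all genes. Grap2, the adaptor GADS, had 30.3, 44.5 and 38.1 CPM with Compound 10, against 4.12 and 4.92 CPM with DMSO (log2 fold change 3.06, SE 0.23, edgeR adjusted p = 1.6e-05). Ubash3b, the phosphatase STS-1 that curbs receptor signalling, had 17.6, 16.7 and 17.4 CPM with Compound 10, against 104 and 80.2 CPM with DMSO (log2 fold change -2.41, SE 0.20, edgeR adjusted p = 2.5e-05). In both cases the groups lay far apart. The ubiquitin ligase Cblb (-1.53, SE 0.21), the Src-family kinase Fyn (-1.08, SE 0.17), Csnk2b (-0.81, SE 0.19) and Csnk2a1 (-0.62, SE 0.17), subunits of casein kinase 2, were also lower. Higher were Themis (1.42, SE 0.22), the adaptor Sh2d2a (1.32, SE 0.22), the phosphatase Ptpn6 (SHP-1; 1.02, SE 0.22) and the kinase Lck (0.86, SE 0.21). Ptpn6 and Lck lost their calls without library 2 of stimulated DMSO (edgeR adjusted p = 0.0671 and 0.108), Csnk2b without library 1 (0.0608), and Csnk2a1 without library 2 or stimulated Compound 10 library 1 or 3 (largest 0.158).

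In unstimulated cells 4 of the 28 were higher and 1 lower with Compound 10, 17.9% beside 7.34% of all genes. Grap2 had 33.8 and 36.1 CPM, against 11.7 and 14.5 CPM with DMSO (log2 fold change 1.42, SE 0.23, edgeR adjusted p = 0.00358), and its call was lost without library 1 of unstimulated DMSO (edgeR adjusted p = 0.0502). Lck (0.99, SE 0.22), Themis (0.87, SE 0.24) and Ptpn6 (0.85, SE 0.24) were higher and Cblb lower (-1.16, SE 0.24). These 4 lost their calls without at least 1 unstimulated library, the largest edgeR adjusted p being 0.159, 0.286, 0.241 and 0.127 in the order given. Ubash3b had 11.4 and 11.1 CPM with Compound 10 and 12.9 and 8.26 CPM with DMSO, which overlap.

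The response of Grap2 and Ubash3b to Compound 10 differed between stimulated and unstimulated cells by an interaction test. The difference was 1.64 (SE 0.31, edgeR adjusted p = 0.0306) for Grap2 and -2.51 (SE 0.31, edgeR adjusted p = 0.00314) for Ubash3b on the log2 scale, where 1.03% of all genes passed (0.42% higher and 0.605% lower). The Ubash3b call held without each library and was lost with limma on log2(TPM + 0.1), and that of Grap2 was lost without any 1 of 7 libraries, all but stimulated Compound 10 libraries 1 and 2 (largest edgeR adjusted p = 0.151). For Cd2, Cd5 and Cd6 the same difference was -1.85 (SE 0.26), -1.11 (SE 0.32) and -2.04 (SE 0.33), untested.

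Of 18 other scavenger receptor cysteine-rich genes, 5 were tested. Lgals3bp, a secreted glycoprotein, was lower with Compound 10 in both states, with 9.61, 7.23 and 5.67 CPM against 24.0 and 18.8 CPM with DMSO in stimulated cells (log2 fold change -1.51, SE 0.25, edgeR adjusted p = 0.00129). In unstimulated cells the change was -1.68 (SE 0.29, edgeR adjusted p = 0.00584), and it was lost without library 2 of unstimulated Compound 10 (edgeR adjusted p = 0.0667). Loxl2 (-1.02, SE 0.31) and Prss12 (1.39, SE 0.46) passed in stimulated cells with edgeR adjusted p of 0.0327 and 0.0466. Both calls were lost with the replicate number as a block, and that of Prss12 also with DESeq2. Loxl2 was lost without library 2 of stimulated DMSO or library 1 or 3 of stimulated Compound 10 (largest 0.240), and Prss12 without any 1 of 7 libraries, all but those of unstimulated DMSO (largest 0.178).

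A list for the regulatory regions of CD2, CD5 or CD6 held 16 genes, and all were tested. They are transcription factors described there and genes that act with or against such factors, Id3 among them. With Compound 10 in stimulated cells 5 were higher and 1 lower, beside 23% of all genes, and in unstimulated cells 6 were higher, beside 7.34%. Id3, an inhibitor of E proteins, had 165, 167 and 140 CPM with Compound 10, against 40.6 and 31.7 CPM with DMSO in stimulated cells (log2 fold change 2.12, SE 0.20, edgeR adjusted p = 5.1e-05). Its unstimulated levels were 90.1 and 66.6 CPM with Compound 10, against 27.2 and 29.6 CPM with DMSO (1.46, SE 0.21, edgeR adjusted p = 0.00196). Runx3 had 83.0, 76.9 and 79.9 CPM against 22.2 and 29.9 CPM with DMSO in stimulated cells (1.62, SE 0.18, edgeR adjusted p = 0.000132). In unstimulated cells Runx3 had 72.6 and 74.0 CPM with Compound 10, against 23.4 and 28.1 CPM with DMSO (1.51, SE 0.19, edgeR adjusted p = 0.00103). Tcf7, which codes for TCF-1, was higher in stimulated cells (1.92, SE 0.30, edgeR adjusted p = 0.000912).

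Ets2 was higher in both states (1.19, SE 0.25 stimulated; 1.22, SE 0.26 unstimulated). In stimulated cells Tcf3, an E protein, was higher (0.66, SE 0.18) and Gabpa, an Ets factor, lower (-0.96, SE 0.21). Both calls were lost with limma on log2(TPM + 1), and that of Gabpa came close to the threshold without single libraries. Gata3 (0.83, SE 0.21), Rora (0.78, SE 0.20) and Runx1 (0.69, SE 0.18) passed in unstimulated cells. Ets2 in stimulated cells was lost without library 2 of stimulated DMSO (edgeR adjusted p = 0.0522), and Tcf3 without either stimulated DMSO library or stimulated Compound 10 library 1 (largest 0.117). The unstimulated calls of Ets2, Gata3 and Rora were lost without any of several unstimulated libraries, both of DMSO among them (largest 0.173, 0.195 and 0.182), and that of Runx1 without any library but stimulated Compound 10 library 2 (largest 0.252).

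**Figure D5:**
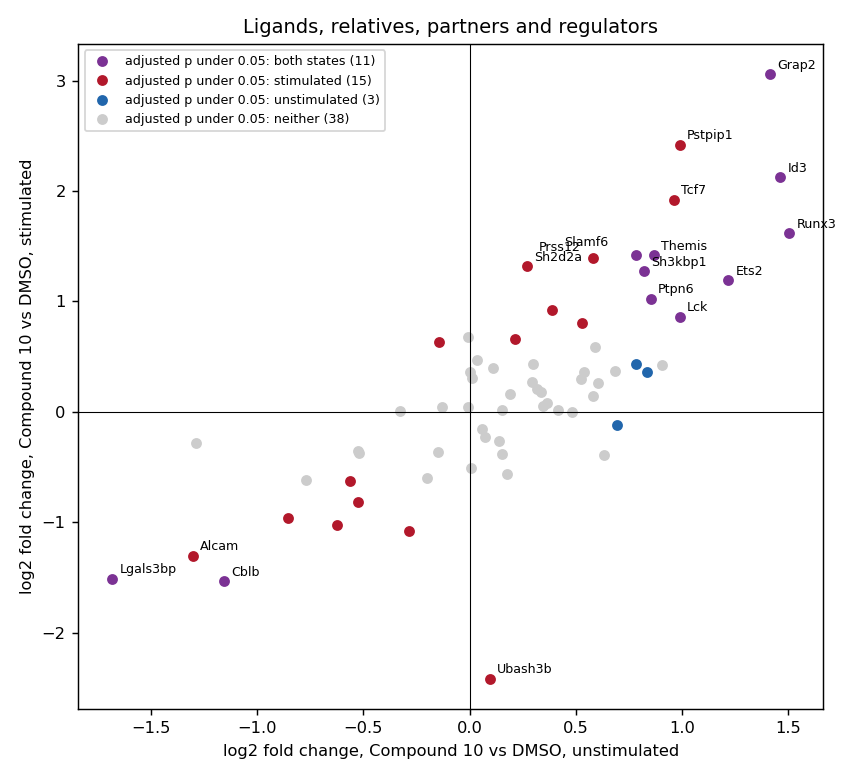
Log2 fold change with Compound 10 in stimulated (vertical) against unstimulated cells (horizontal) for the 67 tested ligands, relatives, partners and regulators, coloured by where the adjusted p is under 0.05. The 26 called in stimulated and 14 called in unstimulated cells lie on either side of 0; Grap2 stands highest and Ubash3b lowest on the vertical axis.

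Cell types other than CD4 T cells that carry these receptors were read from their markers. CD2 is also on natural killer cells, whose 8 markers summed to 25.7 to 36.8 CPM in stimulated Compound 10 libraries and 21.5 to 25.1 CPM in stimulated DMSO libraries. In unstimulated cells they summed to 17.8 to 20.003 CPM with Compound 10 and 10.4 to 13.8 CPM with DMSO. Of the 6 tested, 4 were higher with Compound 10 in stimulated cells and 1 in unstimulated cells, beside 23% and 7.34% of all genes. The other markers, Ncr1 and Klra8, were too low to test, at 0.05 to 0.52 and 0.07 to 0.78 CPM over the libraries. CD5 is also on B-1a cells. The 10 B cell markers summed to 30.2 to 65.3 CPM in stimulated Compound 10, 22.2 to 54.5 in stimulated DMSO, 33.0 to 33.2 in unstimulated Compound 10 and 42.0 to 66.6 CPM in unstimulated DMSO libraries. The smallest edgeR adjusted p among the 8 tested was 0.178 in stimulated and 0.106 in unstimulated cells, both for Cd79b. CD4 T cell markers moved too. With Compound 10, 6 of 10 were higher and 1 lower in stimulated cells and 5 higher in unstimulated cells, beside the same shares. Their sum was 1292 to 1477 CPM with Compound 10 against 853 to 985 CPM with DMSO in unstimulated cells. In stimulated cells it was 4088 to 4850 CPM with Compound 10 and 4219 to 4655 CPM with DMSO, which overlap. The part of these cell types, and of ribosomal RNA, in the levels of Cd2, Cd5 and Cd6 was not tested; without both DMSO libraries richest in ribosomal RNA the unstimulated log2 fold changes were 0.90, 1.88 and 1.82.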

How the data were processed

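RNA sequencing gave 1 table of transcripts per library for 9 libraries in 4 groups, taken from the sample titles. Per the labels' protocols, Qiagen kits were used for RNA and Clontech SMART-seq for libraries. The submitters' processing notes name cutadapt, kallisto and mm10, with no version and no annotation in the sources used here. The authors deposited estimated counts per transcript, unscaled between libraries, per the file headers. They deposited beside them TPM, which divide by transcript length and add up to the same sum in every library.

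Of 109617 transcripts, 108214 matched GENCODE M21 by identifier without version. Counts were summed over the transcripts of a gene and rounded. The 14040 genes left by filterByExpr were scaled by TMM and fitted together in edgeR 4.0.16 (R 4.3.3) with 1 coefficient per group (glmQLFit, robust; glmQLFTest, 2-sided), and p-values were adjusted by Benjamini and Hochberg over all of them (threshold 0.05). Each SE is the log2 fold change, without sign, over the root of its F statistic. The test was checked on simulated counts. Replicate libraries differed by more than counting noise. Precision is set by 2 or 3 libraries a group.

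Cd2, Cd5 and Cd6 and all lists were chosen with earlier results of these data known. Named were the members and their transcripts, all tested ligands, up to 6 passing genes per list and comparison by p (and the remaining 4 of the tail list), passing neighbours, the 5 genes most like each member (1 is not reported here), and Ubash3b in unstimulated cells, chosen after its values were seen. The alternatives were other scaling, filters and tools (DESeq2 1.42.0, limma 3.58.1), ribosomal RNA left out, coding transcripts only, a replicate block and each library left out; 2 were added after the data were seen.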

Additional observations from a re-analysis of the deposited data

Results flagged for a closer look

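The effect of Compound 10 on Grap2 was larger in stimulated than in unstimulated cells by 1.64 on the log2 scale (edgeR interaction test, adjusted p = 0.0306), where stimulated DMSO libraries held the lowest levels. This call held without 2 of the 9 libraries in turn and was lost without each of the other 7 (largest edgeR adjusted p = 0.151), with limma on TPM and with the replicate number as a block (edgeR adjusted p = 0.0621). For Ubash3b the difference between the effects was -2.51 (edgeR interaction test, adjusted p = 0.00314), with stimulated DMSO libraries far above the others.

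Cd2 moved in opposite directions with Compound 10, below DMSO in every stimulated library and above it in every unstimulated library, and the effects differed by -1.85. Cd6 did so with stimulation, every library lower under Compound 10 and every library higher in DMSO, with a difference of -2.04. Neither difference was tested, since both genes were chosen on these groups.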

How the results depend on the processing

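The Cd6 change with Compound 10 in stimulated cells (-0.03) ranged from -0.35 to 0.37 with single libraries left out, so its sign was not fixed. For stimulation under Compound 10, the values of Cd2 and Cd5 changed sign with limma on log2 TPM. They were -0.0955 for Cd2 and -0.145 for Cd5 with a pseudocount of 1, and -0.0967 and -0.147 with 0.1. The median of all genes moved to -0.206 and -0.344 there, and to -0.165 and -0.280 for stimulation in DMSO; the cause was not tested. On these TPM scales the Cd6 value for stimulation under Compound 10 was -1.19 and -1.22, and stimulation in DMSO gave 1.84 and 1.86 for Cd2 and, with a pseudocount of 1, 0.98 for Cd5.

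Counts of genes passing were lower with limma on TPM, where both the tool and the values differ. With limma on log2(TPM + 1), Compound 10 in stimulated cells gave 1187 genes and 15 partners and in unstimulated cells 231 and 4, with 14 partners for stimulation in DMSO, and 22 genes and 1 partner for the interaction. With a pseudocount of 0.1 these were 1259 and 15, 175 and 3, 2531 genes and 14 partners, and 17 and 0. No neighbouring gene passed with Compound 10 on either scale in either state (0 each); edgeR gave 2 and 4. With no filter 1569 genes passed for Compound 10 in unstimulated cells, and 512 genes and 2 neighbours for the interaction. DESeq2 gave the interaction 450 genes, 6 partners and 2 neighbours, where edgeR gave 144, 2 and 0, with 2054 genes at an unadjusted p under 0.05. Coding transcripts alone left 1 neighbour in unstimulated cells. The noncoding A430093F15Rik and AW112010 fell out by construction, and Igsf3 lost its call. Within 100 kb, 0, 3 and 2 neighbours passed for Compound 10 in stimulated cells, stimulation in DMSO and stimulation under Compound 10.

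Leaving out both DMSO libraries richest in ribosomal RNA, an alternative chosen after seeing the data, gave 1827 genes and 15 partners (Compound 10, stimulated), 295, 7 and 1 neighbour (unstimulated), 1597 and 17 (stimulation in DMSO) and 13 and 1 (interaction). Leaving out each library in turn gave 1973 to 3167 genes, 17 to 28 partners and 1 to 2 neighbours for stimulated cells with Compound 10, and 174 to 1457, 4 to 19 and 0 to 4 for unstimulated ones. For the interaction it gave 29 to 264, 1 to 4 and 0 to 1. For stimulation it gave 2425 to 4347 genes and 18 to 33 partners in DMSO, and 1506 to 3085, 11 to 23 and 3 to 6 neighbours under Compound 10. The changes with Compound 10 ranged from -1.02 to -0.76 for Cd2, 0.54 to 1.27 for Cd5 and -0.35 to 0.37 for Cd6 in stimulated cells, and from 1.82 to 2.23 for Cd6 in unstimulated cells. Their interactions ranged from -2.04 to -1.75, -1.42 to -0.70 and -2.36 to -1.64. Stimulation in DMSO gave 0.95 to 1.67 for Cd5 and 0.77 to 1.497 for Cd6.

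Whether replicate numbers of the titles pair the samples cannot be told, since the labels give the number no meaning. Deviations of same-numbered libraries correlated at -0.10 to 0.33, highest between stimulated and unstimulated DMSO, which does not decide it. With the number as a block, 9 partners passed for Compound 10 in unstimulated cells, and 43 genes and 1 partner for the interaction. With the numbers of unstimulated Compound 10 crossed in the block, added after seeing the data, 580 genes and 6 partners passed there. With 2 libraries in 3 of the 4 groups, the split of Cd6 reads between forms and genes at a few counts, such as A430093F15Rik, are limited most.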

Other observations

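Some genes that work with these receptors moved with stimulation under either treatment. The genes given here were chosen after their values were seen. Slamf1, a SLAM family receptor, averaged 315 ± 42.8 CPM in stimulated and 10.3 ± 0.69 CPM in unstimulated cells with Compound 10 (SD, n = 3 and 2), and 312 ± 0.35 CPM in stimulated and 12.9 ± 0.092 CPM in unstimulated cells with DMSO (SD, n = 2 each). Its log2 fold change with stimulation was 4.94 (SE 0.22) under Compound 10 and 4.60 (SE 0.22) in DMSO (edgeR adjusted p = 5.09e-08 and 9.74e-08).

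Among partners of the CD5 and CD6 tails, Ptpn22, a phosphatase that restrains receptor signalling, rose by 3.00 (SE 0.21) under Compound 10 and 2.83 (SE 0.22) in DMSO on the log2 scale. Zap70, the kinase that docks on the receptor, rose by 1.43 (SE 0.19) and 1.96 (SE 0.21), and the adaptor Lcp2 by 1.86 (SE 0.22) and 2.34 (SE 0.23). Ubash3a, a relative of Ubash3b, fell by 1.45 (SE 0.41) under Compound 10 and by 2.45 (SE 0.46) in DMSO. All of these passed in edgeR, the largest adjusted p being 0.0343, for Ubash3a under Compound 10.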
